A study of Homo sapiens with 2 samples.

Results

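The 10 genes described here encode the oxygen-sensing pathway of human cells: the hypoxia-inducible factor subunits EPAS1, HIF1A, HIF3A and ARNT, the oxygen-dependent hydroxylases EGLN1, EGLN2, EGLN3 and HIF1AN, and VHL with its partner ELOC. They were chosen by name, and the DEK ChIP-seq peaks that overlapped each gene's annotated span plus 10 kb on either side were assigned to it. All 10 were found among the 19974 protein-coding genes that the RefSeq table of GRCh38.p14 places on chromosomes 1 to 22 and X. Their windows held 13 of the 19128 peaks deposited for replicate 1 and 15 of the 24580 deposited for replicate 2. The study had 1 group of 2 libraries from 786-O, an established human renal carcinoma cell line, with a genotype given as WT, a DEK antibody, and a title that calls both samples negative control. The sample descriptions also carry the name Cas9, and the labels do not say what that control was for. They give no treatment and do not say that the replicates were separate cultures, so the spread between them may be technical. DEK is an abundant non-histone chromatin protein of the nucleus.

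When oxygen is present, the EGLN prolyl hydroxylases modify the alpha subunits of the hypoxia-inducible factors, and the VHL ubiquitin ligase then binds these subunits and marks them for destruction. HIF1AN hydroxylates an asparagine of the alpha subunits and so blocks their contact with coactivators. When oxygen falls, or when VHL is lost, the alpha subunits persist, pair with ARNT and switch on target genes, which include EGLN3 and EGLN1 themselves. VHL is the gene most characteristically inactivated in clear cell renal carcinoma. The 786-O line is known for a mutated VHL and for making the EPAS1 product but no functional HIF1A product, and the labels do not say which gene their WT genotype refers to.

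The data were the authors' peak lists, called separately for each library, with a fold enrichment at each summit (a linear ratio of signal over background within that library). The median fold enrichment was 3.99 in replicate 1 and 3.89 in replicate 2, and 5% of the peaks lay below 2.94 and 2.85. Read totals were not part of these files. The number of overlapping fragments at each summit is called the pileup here. It and the number expected from the background were recovered by calculation from the deposited fold enrichment and p. The sources do not state a control library, so this background may hold the same library's own reads around the summit, DEK signal included. The median pileup was 19 in both libraries. With 1 group and no input or edited sample analysed here, no test between conditions was possible, and the values below are descriptions.

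DEK peaks found in both libraries lay in the windows of 5 of the 10 genes, EPAS1, HIF3A, EGLN1, EGLN3 and ELOC. A shared region was defined as peaks of both replicates that overlapped by at least 1 bp, and the 5 genes held 10 of them. EGLN1 had 3, EPAS1, HIF3A and ELOC had 2 each, and EGLN3 had 1. Over all protein-coding genes, 32.9% had a shared region in the same kind of window. ARNT and HIF1AN had 1 peak each in replicate 2 alone, as 12.4% of all protein-coding genes had peaks of replicate 2 only. VHL, HIF1A and EGLN2 had none in either library, as had 44.1% of all protein-coding genes. Replicate 1 alone gave 5 genes with a peak (43.4% of all protein-coding genes) and replicate 2 alone gave 7 (49.7%).

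**Figure D1:**
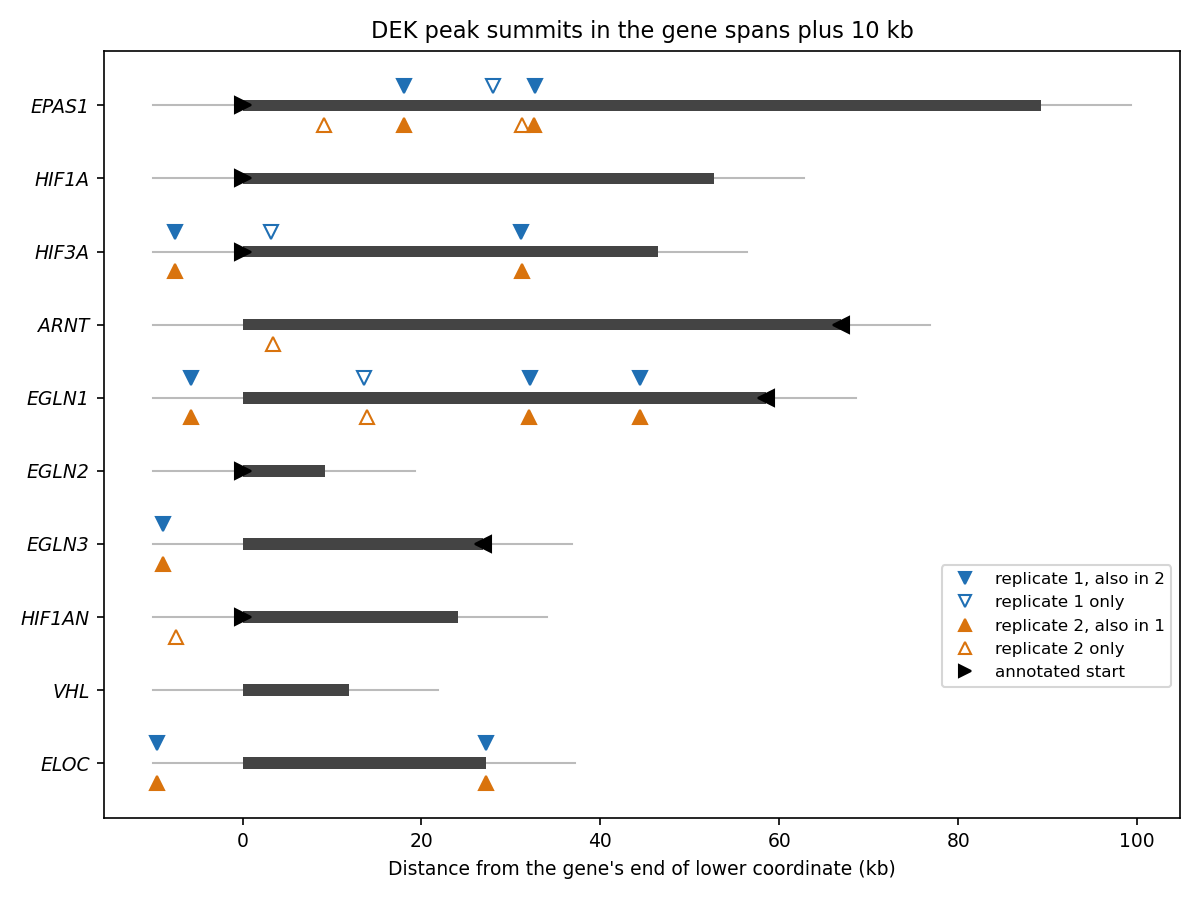
Summits of DEK peaks along the 10 genes, with distance in kb from each gene's end of lower coordinate on the horizontal axis, dark bars for the annotated spans, thin lines for the 10 kb flanks, triangles above the bar for replicate 1 and below it for replicate 2, filled where the peak overlapped one of the other replicate, and black arrowheads at the outermost annotated start where the promoter table gives one. Peaks of both replicates stand above each other at EPAS1, HIF3A, EGLN1, EGLN3 and ELOC, while VHL, HIF1A and EGLN2 have no triangle.

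Of the alpha subunit genes, EPAS1 and HIF3A each had 3 peaks in replicate 1, and EPAS1 had 4 in replicate 2 against 2 at HIF3A. Per 100 kb of window, EPAS1 had 2.74 and 3.66 peaks in replicates 1 and 2, and HIF3A had 4.52 and 3.01. All EPAS1 peaks lay inside the gene (chromosome 2, 46297407 to 46386697, plus strand), between 10.2% and 36.6% of its length from the start. The gene table has no exons, so exon and intron were not told apart for any peak. The stronger shared region, at 46315131 to 46315762, had a fold enrichment of 5.08 in replicate 1 and 4.45 in replicate 2 (4.77 ± 0.441, SD, n = 2). Both libraries placed its summit on the same base, 46315473, which lies 18.1 kb downstream of the start. Summits coincided to the base in 0.699% of all shared regions.

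The second shared region of EPAS1, at 46329900 to 46330129 and 32.6 kb downstream of the start, had 3.15 in replicate 1 and 2.49 in replicate 2 (2.82 ± 0.465, SD, n = 2). It was among the weakest shared regions by fold enrichment, with only 2.22% of all shared regions at or below its mean. Its pileup was 41 fragments in replicate 1 and 32 in replicate 2, at percentiles 97.2 and 90.4 of the peaks of each list. The expected pileup there was 12.3 and 12.2 fragments, at percentiles 98.3 and 97.8. The low fold enrichment therefore stood beside a high fragment count and a high expected pileup in both libraries. Whether wider DEK signal around these peaks raised the expected pileup was not tested.

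The remaining EPAS1 peaks were seen in 1 library each. Replicate 1 had a peak 28.0 kb downstream of the start with a fold enrichment of 2.84, and the nearest replicate 2 peak was 3001 bp away. Replicate 2 had peaks at 9.14 kb and 31.2 kb with 3.12 and 2.51, of which the second lay 1183 bp from a replicate 1 peak. The expected pileup was 8.51 fragments at the replicate 1 peak and 11.4 at the second replicate 2 peak, both above the 90th percentile of their lists (93.5 and 97.1). Each peak called from 28.0 kb to 32.6 kb inside EPAS1 thus had a high expected pileup. That stretch held 4 of the 7 EPAS1 peaks, among them both peaks of the second shared region. Between the summits the expected pileup was not recovered.

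HIF3A (chromosome 19, 46297042 to 46343433, plus strand), whose product is an alpha subunit with a weaker transactivating role and inhibitory splice forms, had 3 peaks in replicate 1 and 2 in replicate 2. The upstream shared region, at 46289200 to 46289640, reached 5.10 in replicate 1 and 5.90 in replicate 2 (5.50 ± 0.560, SD, n = 2). Its summits lay 7.61 kb and 7.55 kb before the outermost start, and no other annotated gene spanned them. This mean was at or above that of 91.1% of all shared regions. The other shared region, at 46328058 to 46328407 inside the gene, had 4.20 and 4.59 (4.40 ± 0.277, SD, n = 2). It rested on 13 fragments in replicate 1 and 14 in replicate 2, against an expected pileup of 2.33 and 2.27. A further peak of replicate 1 alone, of 4.22, lay 1837 bp downstream of the second annotated start of HIF3A. That was the shortest distance between any peak and an annotated start of the 8 genes with a start in the promoter table.

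Both shared regions of HIF3A had a lower expected pileup than most peaks of their lists, whereas the EPAS1 peaks had a higher one. The expected pileup at HIF3A ranged from percentile 11.5 to 26.2 in replicate 1 and from 9.10 to 23.6 in replicate 2. At EPAS1 it ranged from percentile 78.1 to 98.3 in replicate 1 and from 76.1 to 97.8 in replicate 2. These values are not independent, because the EPAS1 peaks lie close together and a shared region counts in both libraries. Fold enrichment alone ranks the upstream HIF3A region above every EPAS1 peak, whereas the pileup of 19 and 22 fragments at HIF3A lay below the 33 and 37 at the stronger EPAS1 region.

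**Figure D2:**
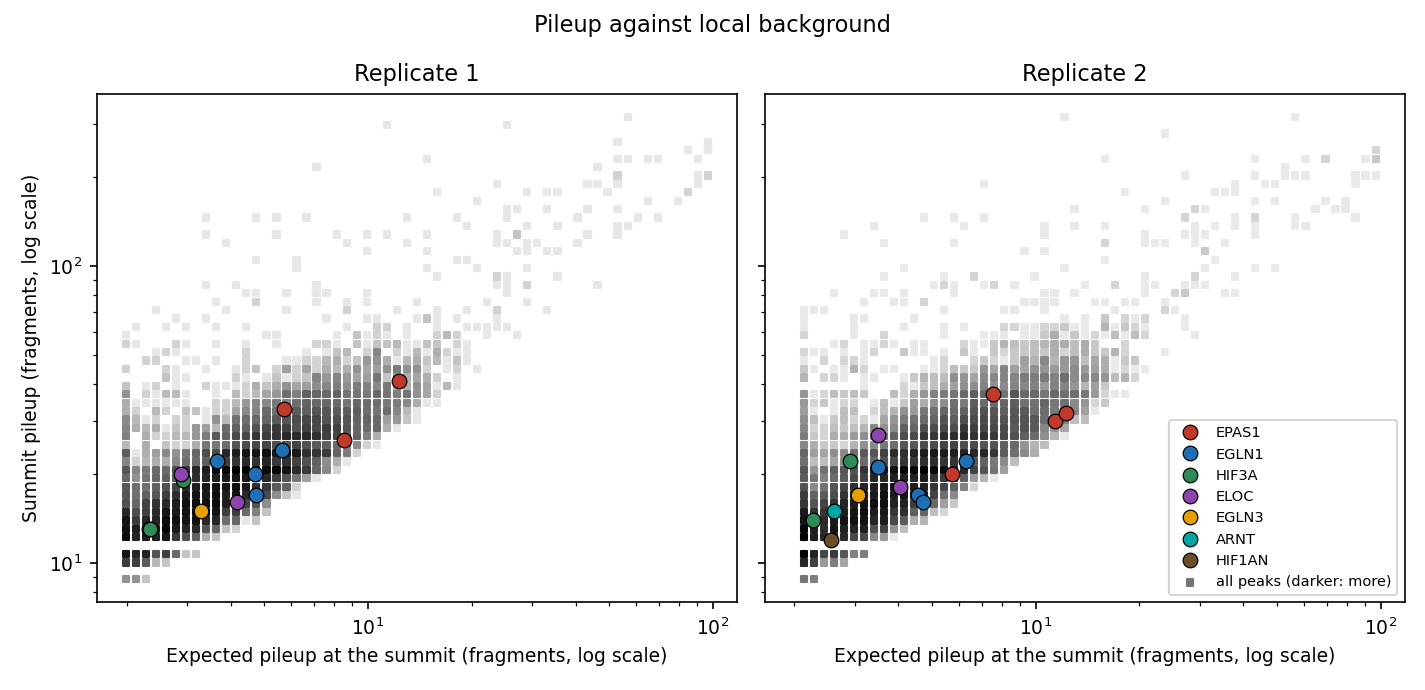
Summit pileup against the expected pileup, both in fragments on log scales, for the peaks of the 10 genes (coloured by gene) and for all peaks of the same library (grey squares, darker where there are more), with replicate 1 on the left and replicate 2 on the right. The EPAS1 peaks sit to the right, with 20 to 41 fragments over an expected 5.70 to 12.3, the HIF3A peaks sit to the left with 13 to 22 fragments, and 2 HIF3A peaks of replicate 1 with 13 fragments each fall on one point.

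The third alpha subunit gene, HIF1A (chromosome 14, 61695513 to 61748258, plus strand), had no peak in its window. The nearest shared region, at 61662573 to 61662772, lay 32.7 kb before its start and had 4.03 in replicate 1 and 3.37 in replicate 2 (3.70 ± 0.465, SD, n = 2), in sequence spanned by no other annotated gene. ARNT (chromosome 1, 150809713 to 150876599, minus strand), the common partner of the alpha subunits, had 1 peak of replicate 2 at 150812927 to 150813223. It had a fold enrichment of 4.43 on 15 fragments and lay at 94.98% of the gene's length from the start, within 1 kb of the pseudogene RNU6-1309P. The nearest replicate 1 peak was 109380 bp away.

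Among the prolyl hydroxylases, EGLN1 (chromosome 1, 231363756 to 231422287, minus strand), the main oxygen sensor of the family, held 4 peaks in each replicate, and the 4 positions matched or nearly matched. The strongest shared region, at 231357857 to 231358416, had 4.93 in replicate 1 and 4.88 in replicate 2 (4.91 ± 0.0314, SD, n = 2), with summits 4 bp apart. It lay 5.75 kb past the end of EGLN1, inside the long non-coding RNA gene LOC107985360 and within 1 kb of its end, and 2984 bp in replicate 1 and 2980 bp in replicate 2 from SPRTN, the nearest other protein-coding gene. Inside EGLN1, the shared region at 231395451 to 231395978 had 3.76 and 3.15 (3.46 ± 0.431), and that at 231408025 to 231408406 had 3.13 and 2.98 (3.05 ± 0.108; SD, n = 2 for each). The fourth pair missed the definition of a shared region. The replicate 1 peak at 231377190 to 231377456, with 3.67, and the replicate 2 peak at 231377585 to 231377856, with 3.24, were separated by a gap of 129 bp and their summits by 410 bp.

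EGLN3 (chromosome 14, 33924227 to 33951074, minus strand), a hydroxylase that hypoxia itself induces, had 1 shared region, at 33915221 to 33915461. It had 3.74 in replicate 1 and 4.45 in replicate 2 (4.09 ± 0.498, SD, n = 2). It lay 8.93 kb and 8.86 kb past the end of the gene and 111122 bp and 111196 bp from NPAS3, the nearest other protein-coding gene, so EGLN3 was the nearer gene. EGLN2 (chromosome 19, 40799191 to 40808434, plus strand), the most compact member of the hydroxylase family here with a span of 9.24 kb, had no peak in its window. The nearest peak to EGLN2 was one of replicate 2 alone at 20.9 kb, with a fold enrichment of 4.45, and the nearest shared region, at 40750459 to 40750817, was 48.4 kb away (4.51 ± 0.172, SD, n = 2). HIF1AN (chromosome 10, 100535943 to 100559998, plus strand) had 1 peak of replicate 2, at 100528521 to 100528683, 7.40 kb before its start and inside NDUFB8, a subunit gene of mitochondrial complex I. That peak had 3.65 on 12 fragments, and the nearest replicate 1 peak was 46377 bp away.

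The stretches just before the starts of EPAS1, HIF3A, EGLN1 and EGLN3 are shown because no peak of either library touched them. This could not be said of ELOC, whose strongest shared region covers an annotated end. Each line gives the 250 bases before the outermost annotated start, from the RefSeq promoter table of GRCh38.p14, read from 5′ to 3′ on the strand of the gene. Capitals mark ACGTG, a form of the core of the hypoxia response element, searched on both strands (CACGT on the other strand, with overlapping matches counted). The other form of the core, GCGTG, was not searched and is not marked.
EPAS1, chr2:46297157-46297406, plus strand: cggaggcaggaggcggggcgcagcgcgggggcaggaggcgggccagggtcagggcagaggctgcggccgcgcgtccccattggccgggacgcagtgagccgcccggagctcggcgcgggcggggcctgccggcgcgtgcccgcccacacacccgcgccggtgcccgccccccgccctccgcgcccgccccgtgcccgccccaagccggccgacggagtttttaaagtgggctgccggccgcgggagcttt
HIF3A, chr19:46296792-46297041, plus strand: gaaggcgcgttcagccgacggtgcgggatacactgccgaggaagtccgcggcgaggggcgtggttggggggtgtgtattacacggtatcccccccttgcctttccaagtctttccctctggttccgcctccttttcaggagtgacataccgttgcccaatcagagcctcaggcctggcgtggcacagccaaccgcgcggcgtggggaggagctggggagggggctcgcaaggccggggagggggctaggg
EGLN1, chr1:231422288-231422537, minus strand: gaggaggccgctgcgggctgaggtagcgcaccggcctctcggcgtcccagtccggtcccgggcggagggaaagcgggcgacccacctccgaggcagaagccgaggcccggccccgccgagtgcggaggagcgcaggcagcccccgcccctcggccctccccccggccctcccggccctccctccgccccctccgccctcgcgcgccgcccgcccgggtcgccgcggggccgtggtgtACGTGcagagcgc
EGLN3, chr14:33951075-33951324, minus strand: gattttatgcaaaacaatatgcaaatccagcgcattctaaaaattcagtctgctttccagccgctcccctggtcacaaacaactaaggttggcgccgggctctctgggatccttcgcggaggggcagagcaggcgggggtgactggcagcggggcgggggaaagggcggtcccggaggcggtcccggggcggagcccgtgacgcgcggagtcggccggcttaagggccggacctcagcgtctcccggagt
ELOC, which also had shared regions, and VHL have no sequence in the table. Of these 4 stretches only that of EGLN1 held ACGTG, 13 bases before the start. Over all 34961 promoter windows of the table, 18.5% held it in their 250 upstream bases, so 1 in 4 is near the background. EGLN2, which had no peak, held 2 overlapping matches before its outermost start, the first 49 bases before it. The 4 stretches had GC contents of 80.8% (EPAS1), 66.4% (HIF3A), 81.2% (EGLN1) and 64.0% (EGLN3), above the median of 58.4% over the table. Genes without a shared region also lay above it at their outermost start, with 75.6% (HIF1A), 76.0% (EGLN2) and 64.4% (ARNT), while HIF1AN had 54.4%. A match is a match of letters and not a binding site.

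None of the 12 promoter windows that the table lists for 8 of the genes, each running from 250 bases before to 50 after a start, overlapped a peak of either replicate. Over all such windows of that source, 3.08% overlapped a shared region and 6.77% a peak of either library, so 0 of 12 is near the background. ELOC and VHL have no window there, so the shared region over the ELOC end of higher coordinate was not counted. Without a strand for ELOC, it was not told whether that end is the start. For EPAS1 the peak nearest to its start was the replicate 2 peak at 9.14 kb, and for EGLN1 it was the shared region at 14.1 kb.

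VHL and ELOC work together in the ubiquitin ligase. VHL (chromosome 3, 10141778 to 10153667) had no peak in its window. Its nearest peaks were found in 1 library each, in replicate 1 at 20.2 kb inside IRAK2, with a fold enrichment of 5.71, and in replicate 2 at 25.1 kb on the other side inside BRK1, with 3.88. The nearest shared region, at 10191900 to 10192273, lay 38.2 kb from VHL inside IRAK2 and had 3.76 and 3.30 (3.53 ± 0.321, SD, n = 2). ELOC (chromosome 8, 73945119 to 73972287), which encodes elongin C, the adaptor that joins VHL to its cullin scaffold, had the highest mean fold enrichment among the 10 shared regions. That region, at 73972250 to 73972583, had 5.41 in replicate 1 and 6.22 in replicate 2 (5.81 ± 0.572, SD, n = 2). This mean was at or above that of 93.6% of all shared regions. It covered the end of ELOC of higher coordinate, with summits 0.084 kb and 0.08 kb outside the annotated span and 4 bp from each other. ELOC was the only 1 of the 10 genes with a shared region within 1 kb of an annotated end, which 7.53% of all protein-coding genes had. The table used here has no strand for ELOC, and the next protein-coding gene, TMEM70, was 3824 bp and 3828 bp away. The other shared region of ELOC, at 73935365 to 73935739, lay 9.56 kb and 9.61 kb below the end of lower coordinate and had 3.29 and 3.77 (3.53 ± 0.337, SD, n = 2).

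**Figure D3:**
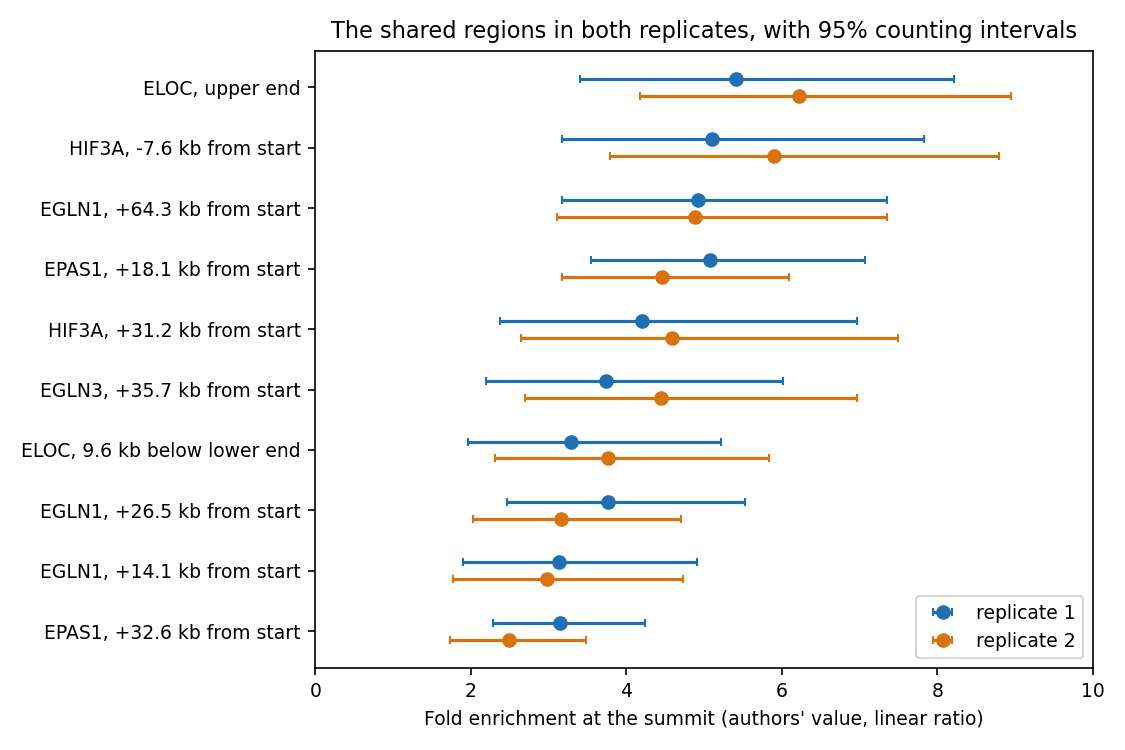
Fold enrichment at the summit, the authors' linear ratio, in replicate 1 and replicate 2 for each of the 10 shared regions, ordered by their mean. Points are the deposited values and bars the exact Poisson 95% intervals of the pileup with the background held fixed; the highest is the ELOC region at its upper end, with 5.41 and 6.22, and the intervals of the replicates overlap in all 10 regions.

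The replicates gave these 10 regions similar strengths. Fold enrichment was higher in replicate 1 at 5 regions and in replicate 2 at the other 5, and the absolute log2 ratio between them ranged from 0.01 to 0.34, with a median of 0.20 against 0.17 over all 12590 shared regions. The exact Poisson 95% intervals of the replicates, which cover counting error only, overlapped in all 10. These intervals are wide and the regions were selected as found in both libraries, so the overlap says little about agreement. For the ELOC region at the upper end they ran from 3.40 to 8.21 in replicate 1 and from 4.17 to 8.94 in replicate 2. For the second EPAS1 region, where the replicates differed most, they ran from 2.28 to 4.25 and from 1.73 to 3.49. These highest and lowest regions of the 10 thus had overlapping intervals in replicate 1 and separate ones in replicate 2. The mean fold enrichment of the 10 regions had a median of 4.25 and ranged from 2.82 to 5.81, against a median of 4.12 over all shared regions.

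Of the 13 replicate 1 peaks, 10 overlapped a replicate 2 peak (76.9%, exact Clopper-Pearson 95% interval 46.2 to 94.96), against 67.8% of all replicate 1 peaks. Of the 15 replicate 2 peaks, 10 overlapped a replicate 1 peak (66.7%, 38.4 to 88.2), against 52.2% of all replicate 2 peaks. Both intervals include the value over all peaks. The 8 peaks without a partner had a −log10 q below the median of their list (4.45 in replicate 1 and 4.38 in replicate 2). Their −log10 q ranged from 3.28 to 4.12 in replicate 1 and from 2.59 to 4.37 in replicate 2. By fold enrichment, the ARNT peak (4.43) and the HIF3A peak of replicate 1 (4.22) lay above the medians of their lists (3.89 and 3.99). The others lay below them. All 6 replicate 1 peaks and all 4 replicate 2 peaks with a −log10 q of at least 5 had a partner, as had 86.4% and 75.9% of all such peaks of the lists. Peaks with a low −log10 q could also be shared: those of the EGLN1 region at 14.1 kb had 2.57 in replicate 1 and 2.199 in replicate 2.

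Window length bears on the count of regions, because a longer gene offers more sequence. With a window of 78.5 kb, EGLN1 reached 3 shared regions, and 5.21% of the protein-coding genes with windows of 50 to 100 kb had at least 3. The strongest of these EGLN1 regions lay outside the gene and nearer to SPRTN. HIF3A, with 66.4 kb, had 2, and 13.3% of genes in that class had at least 2. ELOC, with 47.2 kb, had 2, against 6.19% of genes with windows under 50 kb that had at least 2. EPAS1, with 109 kb, had 2, against 26.4% of genes with windows over 100 kb. EGLN3, with 46.8 kb, had 1, and 26.4% of the genes with windows under 50 kb had at least 1. The absence at VHL and EGLN2 was shared with 52.0% of genes with windows under 50 kb, which had no peak in either library, and that at HIF1A with 39.7% of genes with windows of 50 to 100 kb. Pooled over the 10 windows (613 kb) there were 1.63 shared regions per 100 kb, against 0.668 over the pooled windows of all protein-coding genes. The pooled value of the members rested on 10 shared regions, was given no interval, and its difference from all genes was not tested. By gene the density was highest at ELOC, with 4.24 per 100 kb (exact Poisson 95% interval 0.513 to 15.3), followed by EGLN1 with 3.82 (0.788 to 11.2), HIF3A with 3.01 (0.365 to 10.9), EGLN3 with 2.13 (0.054 to 11.9) and EPAS1 with 1.83 (0.222 to 6.61). All of these intervals overlapped one another.

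**Figure D4:**
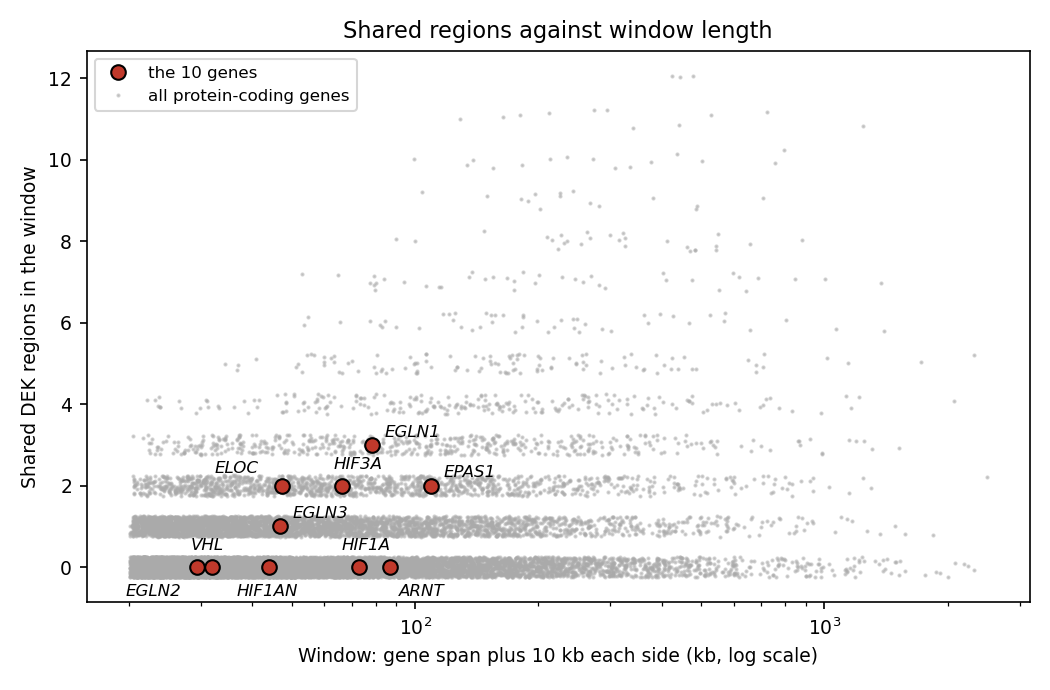
Number of shared DEK regions in the window (vertical axis) against the length of the window in kb on a log scale for the 10 genes (red, named) and for all protein-coding genes (grey, jittered vertically; 8 genes with more than 12 regions are not drawn). EGLN1 has 3 regions in 78.5 kb and EPAS1 2 in 109 kb, and all 10 genes lie within the range of genes of similar length.

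Where no peak is listed, nothing at that place reached the threshold of peak calling. The surroundings of the genes without peaks differed in their number of peaks and in the expected pileup at those peaks. Within 5 Mb of HIF1A there were 23 replicate 1 and 45 replicate 2 peaks, and within 5 Mb of VHL 43 and 68, against medians of 81 and 105 over all protein-coding genes. Around EGLN3, on the same chromosome as HIF1A, there were 22 and 25. The median expected pileup of the peaks within 5 Mb was 2.85 and 2.56 fragments around HIF1A, 3.04 and 2.76 around VHL and 2.19 and 2.22 around EGLN3, against 3.90 and 4.01 over all peaks. EGLN2 was different: its surroundings held 164 and 227 peaks with a median expected pileup of 3.80 and 4.30. Around ELOC, which had 2 shared regions, there were only 28 and 27 peaks, with a median expected pileup of 2.64 and 3.19. The part of local background in the missing peaks was not tested. With 0 peaks, the exact Poisson 95% interval of the rate reached up to 11.6 peaks per 100 kb for VHL, 12.6 for EGLN2 and 5.07 for HIF1A in each library. The limits for VHL and EGLN2 lie above the peak rates of all the other genes, and that for HIF1A above all but the 5.09 of EGLN1 in each library.

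Other genes of the pathway were described through a list of 30, of which 17 had a shared region (56.7%, against the 32.9% of all protein-coding genes) and none had one within 1 kb of an annotated end, near the 7.53% of all protein-coding genes that had. Their windows had a median of 73.2 kb, against 44.2 kb over all protein-coding genes. Of 10 genes of ubiquitin ligases, deubiquitinases and their partners, 5 had a shared region, among them the deubiquitinase USP20 (4.12 ± 0.620) and CUL2, the cullin scaffold of the VHL ligase (3.90 ± 0.0815; SD, n = 2 for each). Of 4 genes of coactivators and their competitors, 3 had one, among them CITED2, which competes with the alpha subunits for their coactivators (4.95 ± 0.0415), and its relative CITED4 (4.88 ± 0.442; SD, n = 2 for each). Of 10 further genes of the bHLH-PAS family, to which the hypoxia-inducible factors belong, 5 had one. The circadian factor NPAS2 had 3 shared regions, the strongest at 6.44 in replicate 1 and 5.05 in replicate 2. AHRR, the repressor of the aryl hydrocarbon receptor, had 2, the strongest at 7.47 in replicate 1 and 9.99 in replicate 2 (8.73 ± 1.78, SD, n = 2), above the 5.81 of ELOC. Of 6 oxygen-dependent hydroxylase and demethylase genes, 4 had one, and the histone demethylases KDM4B and KDM4C had 4 each, with strongest regions of 4.89 ± 0.377 and 5.03 ± 0.368 (SD, n = 2 for each). The genes named with several regions have long windows: 204 kb for KDM4B, 475 kb for KDM4C, 198 kb for NPAS2 and 137 kb for AHRR. Per 100 kb they had 1.96 (KDM4B), 0.842 (KDM4C), 1.51 (NPAS2) and 1.46 (AHRR) shared regions, all below the 1.83 of EPAS1 except KDM4B. Of all genes with windows over 100 kb, 26.4% had at least 2 regions, and the shares with at least 3 or 4 were not counted.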

How the data were processed

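The authors deposited 1 narrowPeak list per library. Per the submitters' processing notes, the build was GRCh38 (hg38), and the notes name MACS2 2.2.7.1, Bowtie2 2.2.5, cutadapt 1.18, deepTools 3.5.1, ChIPseeker 1.32.1 and DiffBind 3.6.5 without their roles. The sources used here do not state a control library. The deposited columns hold a score, a fold enrichment (a linear ratio), a −log10 p and a −log10 q per peak.

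With Python 3.11.15 and scipy 1.17.1, peaks on chromosomes 1 to 22 and X were matched to gene spans plus 10 kb, with at least 1 bp of overlap. A region took its strongest peak per library. Pileup and background were solved from fold enrichment, as (pileup + 1) over (background + 1), and the Poisson p, within a relative tolerance of 5e-05 in all but 1 peak of each library. Overlap and pileup steps were tested on simulated data. Intervals cover counting error only, and no test was run, since 1 group allows none. Named genes were the 10 members, genes at their peaks, and from the pathway list the 2 per sub-list with most shared regions, ties going to the higher mean percentile of fold enrichment. Nearest genes given with a distance, and genes at peaks outside the windows, were added after their values were seen. Genes and lists were chosen with earlier results of these data known.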

Additional observations from a re-analysis of the deposited data

How the results depend on the processing

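The alternatives changed 13 of 42 summary values by more than 1.5 times or past their interval, and the cause was not tested beyond what each setting removes. Without flanks, and with flanks of 5 kb, 6 shared regions were left in 4 genes. EPAS1 and EGLN1 then had 2 each, HIF3A and ELOC 1 each, and EGLN3 had none. Flanks of 50 kb gave 22 replicate 1 and 30 replicate 2 peaks and 18 shared regions in 9 genes, with HIF1AN the exception. With a −log10 q of at least 5 there were 6 and 4 peaks and 4 shared regions, 1 each at EPAS1, HIF3A, EGLN1 and ELOC. Here a partner had to reach the threshold too, and 66.7% of the replicate 1 peaks and 100% of the replicate 2 peaks were shared. With a fold enrichment of at least 4 there were 6 and 7 peaks and 5 shared regions in the same 4 genes. Requiring 50% overlap of both peaks, or summits within 100 bp, left 9 shared regions in 5 genes. With 1 replicate left out, the peaks of the other alone gave 13 to 15 regions in 5 to 7 genes. VHL, HIF1A and EGLN2 had none under each of these settings except flanks of 50 kb, where each had 1. No paired analysis was possible because there was 1 group. The median pileup of 19 fragments limits the precision of each fold enrichment.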
